A study of Mus musculus with 2 samples.

Results

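The VEGF and angiopoietin system was followed through 10 genes in differentiating mouse embryonic stem cells (ESCs), 5 of them ligands (Vegfa, Vegfb, Vegfc, Pgf and Angpt2) and 5 receptors (Kdr, Flt1, Flt4, Tek and Tie1). They were taken by symbol from the 24354 rows of the gene table, and all 10 were found. Each row holds an FPKM value (fragments per kilobase of transcript, scaled to the size of the library) from poly(A)-selected RNA for 2 libraries. The Diff–CONT library comes from differentiating control ESCs, whose genotype is labelled WT and which the methods describe as ESCs of Ino80 2f/2f blastocysts without CreER. The Diff–iKO library comes from differentiating Ino80 iKO ESCs, labelled as an Ino80 knockout, which carry the same conditional allele together with CreER at the ROSA26 locus. Both cultures formed embryoid bodies in medium with serum replacement, attached to gelatin, and were then kept for 7 days in differentiation medium with BMP4 and 0.5 µM 4-OHTM, the tamoxifen metabolite that activates CreER. How many ESC lines or cultures stand behind each library was not given in the sources used here. Each group has 1 library, so no difference below has a replicate check, and none has a p-value.

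Vascular endothelial growth factors are secreted dimers that bind receptor tyrosine kinases on the endothelium. VEGF-A acts mainly through KDR (VEGFR2), which drives the growth and migration of endothelial cells, whereas FLT1 (VEGFR1) binds VEGF-A, VEGF-B and placental growth factor tightly and limits the supply to KDR. VEGF-C and VEGF-D bind FLT4 (VEGFR3) and are best known from lymphatic vessels. Angiopoietins bind TEK (TIE2), which keeps vessels stable, and TIE1 is the partner receptor of TEK. In embryos, KDR is also an early marker of the mesoderm that gives rise to blood and endothelium, and the VEGF genes are made by many other cells around the vessels.

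The labels were checked first. Ino80, the targeted gene, was measured at an FPKM of 8.90 in Diff–CONT and 10.3 in the Diff–iKO-labelled library, so the whole-gene value did not fall with the label, and FPKM per gene does not resolve the deleted exons. The X-linked Xist RNA was 0.0639 and 3.59. The 4 Y-linked transcripts (of Uty, Ddx3y, Kdm5d and Eif2s3y) were all lower in the library labelled Diff–iKO, though none was at 0. These 5 genes, Xist included, summed to an FPKM of 12.2 and 7.48. The libraries thus also differed in sex-chromosome transcripts. The part of either difference in the values below was not tested. The second library is therefore named by its label throughout, and every direction is that of its value against the Diff–CONT value. The FPKM steps of single-transcript genes corresponded to a scale of about 30000000 fragments for Diff–CONT and 22400000 for Diff–iKO. Counted on the shortest RefSeq transcript of each, the 10 genes then rested on between 79 and 3547 fragments per library. The intervals below are exact 95% intervals from these fragments and cover counting error only.

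Among the ligands, Vegfa had the highest level in both libraries. Vegfa lies on chromosome 17 from 46016993 to 46032369 (minus strand, GRCm38), and its FPKM was 107 in Diff–CONT and 41.9 in the Diff–iKO-labelled library. This placed it at rank 591 of all rows in the first library and 2016 in the second. The log2 ratio was -1.35 (interval -1.51 to -1.19), a 2.55-fold fall. The fragments behind Vegfa were counted on its shortest RefSeq transcript of 654 nucleotides, and with the longest of 3451 nucleotides the interval was -1.41 to -1.29.

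The other ligands were lower too, by less. Vegfb, which supports the survival of vessels and fat handling in muscle (chromosome 19 from 6982473 to 6987651), was 35.5 and 21.4, a log2 ratio of -0.73 (interval -0.89 to -0.57). Vegfc, the main lymphatic growth factor (chromosome 8 from 54077606 to 54187096), stood at 12.4 and 7.26, a log2 ratio of -0.77 (interval -0.95 to -0.59). Pgf, which encodes the placental growth factor (chromosome 12 from 85166635 to 85177790), had values of 10.1 and 8.04. Its log2 ratio of -0.32 (interval -0.55 to -0.09) was the smallest of the 10 genes. Angpt2, the angiopoietin that loosens vessels and is stored in endothelial cells (chromosome 8 from 18690263 to 18741562), was 6.73 and 3.69, a log2 ratio of -0.87. The interval of Angpt2 ran from -1.08 to -0.67 and so reached a fold change of 2.

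**Figure D1:**
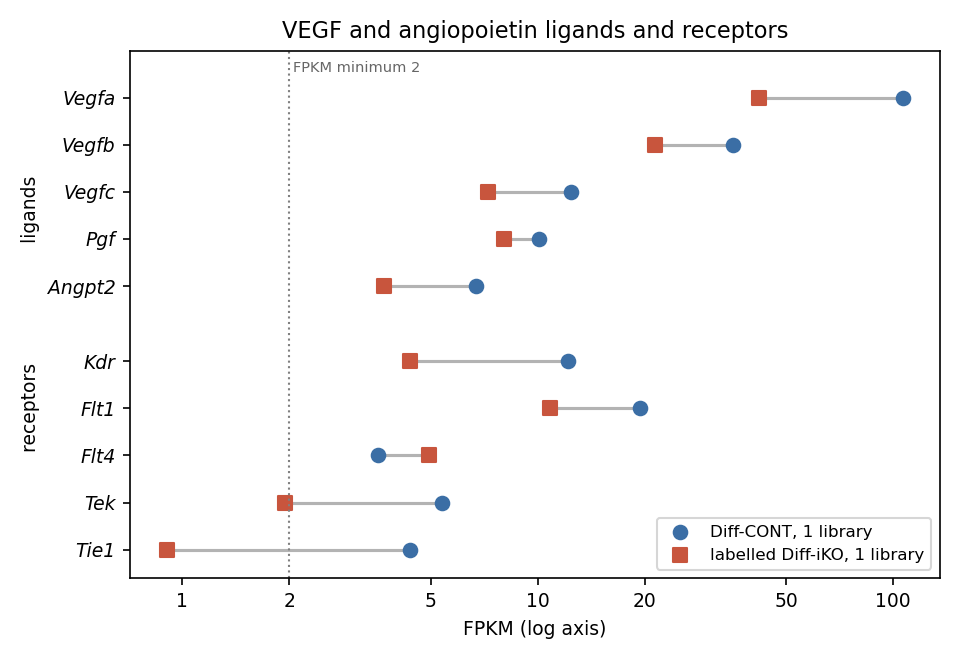
FPKM on a log axis of the 5 ligands and 5 receptors in the Diff–CONT library (circles) and the library labelled Diff–iKO (squares), 1 library each, with the FPKM minimum of 2 as a dotted line. Of the 10 genes, 9 lie further left in the library labelled Diff–iKO and Flt4 lies further right.

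The receptors did not move together. Kdr (chromosome 5 from 75932827 to 75978458, minus strand) was 12.2 in Diff–CONT and 4.37 in the Diff–iKO-labelled library, or 36.0% of the first value. Its log2 ratio was -1.48 (interval -1.61 to -1.34). Flt1 (chromosome 5 from 147561604 to 147726011) had the highest level of the receptors in both libraries, at 19.4 and 10.9, and a log2 ratio of -0.84 (interval -0.92 to -0.75). Flt4 (chromosome 11 from 49609263 to 49652739) was 3.55 and 4.94, and it alone of the 10 genes was higher in the Diff–iKO-labelled library (log2 ratio 0.48, interval 0.32 to 0.63).

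Both angiopoietin receptors, which are expressed mainly in endothelial and some blood-forming cells, were lower. Tek (chromosome 4 from 94739289 to 94874976) was 5.39 and 1.95, a log2 ratio of -1.47 (interval -1.72 to -1.23). Tie1 (chromosome 4 from 118471191 to 118490061) was 4.36 and 0.906, which is 20.8% of the Diff–CONT value and the largest fall of the 10 genes. Its log2 ratio was -2.27 (interval -2.63 to -1.93), with 79 fragments behind the lower value. Adding 1 to both FPKM values brought the ratio of Tie1 to -1.49. In the GENCODE vM21 annotation no exon of another gene overlaps an exon of any of the 10 genes, although the annotation behind the FPKM values is not stated.

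In the order of FPKM, which is per transcript length and so comparable between genes, Vegfa, Vegfb and Flt1 took the first 3 places in both libraries. In the Diff–CONT library Vegfc (12.4) and Kdr (12.2) followed and Flt4 was last. In the library labelled Diff–iKO, Pgf and Vegfc followed at 8.04 and 7.26, Flt4 stood sixth, Kdr was seventh and Tie1 was last. With 1 library each there is no spread between samples by which neighbours in this order could be told apart.

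With a fold change of at least 2, taken without a pseudocount, and an FPKM of at least 2 in at least 1 library, 4 of the 10 genes were lower (Vegfa, Kdr, Tek and Tie1) and 0 were higher. Among all 12376 genes at the FPKM minimum, 8.39% were lower and 6.73% were higher (1038 and 833 genes, or 1002 and 807 with 0.1 added to each FPKM). All 10 genes reached the minimum, 8 of them in both libraries. Tek and Tie1 reached it only through the Diff–CONT library, and 2 genes were lower where the minimum was asked of both libraries. The intervals of the 4 lower genes lay wholly beyond a fold change of 2. With a fold change of at least 1.5, 8 of the 10 genes were lower, beside 17.6% of all genes tested. The median log2 ratio was -0.77 over the 5 ligands and -1.47 over the 5 receptors, while that of all genes tested was -0.00435, and 50.3% of those genes were lower. The genes were chosen with results of these libraries known, so these counts describe them and are no independent evidence of a direction. In bulk RNA, fewer cells of a type and less RNA per cell cannot be told apart.

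**Figure D2:**
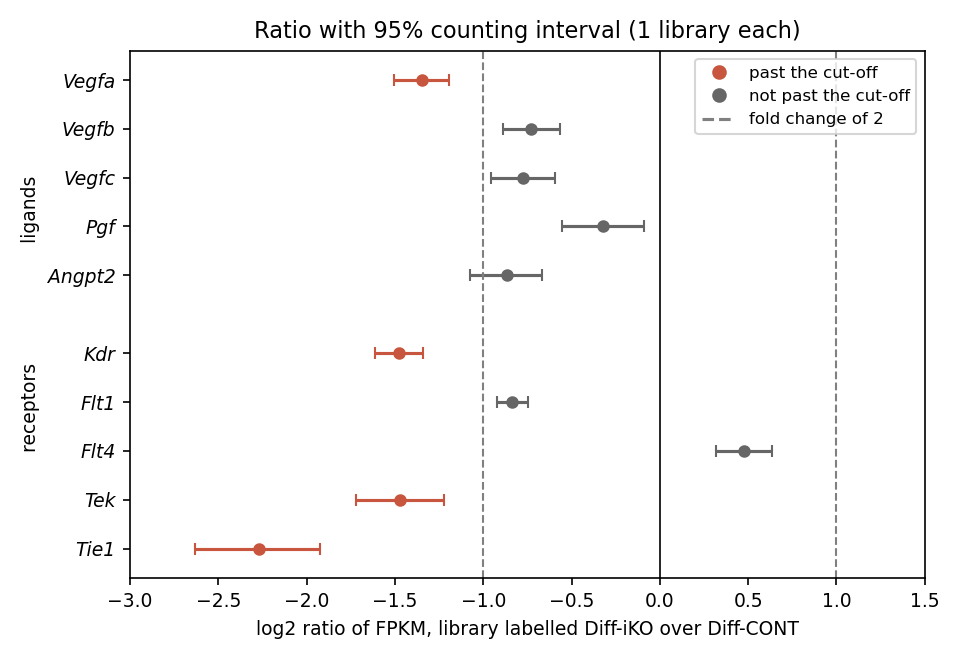
Log2 ratio of FPKM, library labelled Diff–iKO over Diff–CONT, for the 10 genes, with bars for the exact 95% counting interval and dashed lines at a fold change of 2. The intervals of Vegfa, Kdr, Tek and Tie1 lie wholly left of -1, and that of Flt4 (0.32 to 0.63) lies right of 0.

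Because ratios within a library do not depend on how the libraries were scaled to each other, the balance of the system was also described in each library. The FPKM of Vegfa, Vegfb, Vegfc and Pgf, without Vegfd, which is given with the further genes, summed to 165 in Diff–CONT and 78.6 in the Diff–iKO-labelled library. Vegfa made up 64.8% of the first sum and 53.3% of the second. The share of Vegfb was 21.5% and 27.3%, that of Vegfc 7.53% and 9.23%, and that of Pgf 6.12% and 10.2%. The log2 ratio of Vegfa was below those of Vegfb, Vegfc and Pgf. The difference was -0.62 to Vegfb (counting interval -0.85 to -0.40), -0.58 to Vegfc (-0.82 to -0.34) and -1.02 to Pgf (-1.31 to -0.75).

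Among the VEGF receptors, the balance moved away from Kdr. The ratio of Flt1 to Kdr was 1.59 (counting interval 1.51 to 1.68) in Diff–CONT and 2.48 (2.25 to 2.74) in the Diff–iKO-labelled library. Flt4 stood at 0.292 of Kdr (0.267 to 0.319) in Diff–CONT and at 1.13 of Kdr (1.01 to 1.26) in the Diff–iKO-labelled library. The log2 ratio of Kdr was lower than that of Flt4 (difference -1.95, interval -2.16 to -1.74) and than that of Flt1 (difference -0.64, interval -0.80 to -0.48). The ratio of Tek to its partner Tie1 was 1.24 (1.10 to 1.39) and 2.15 (1.64 to 2.85), so Tie1 fell further than Tek (difference -0.80, interval -1.24 to -0.37). The falls of Kdr and Tek were not told apart by counting (difference -0.01, interval -0.29 to 0.28). FPKM per gene does not separate the full-length Flt1 transcript from the shorter one that encodes the soluble receptor.

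**Figure D3:**
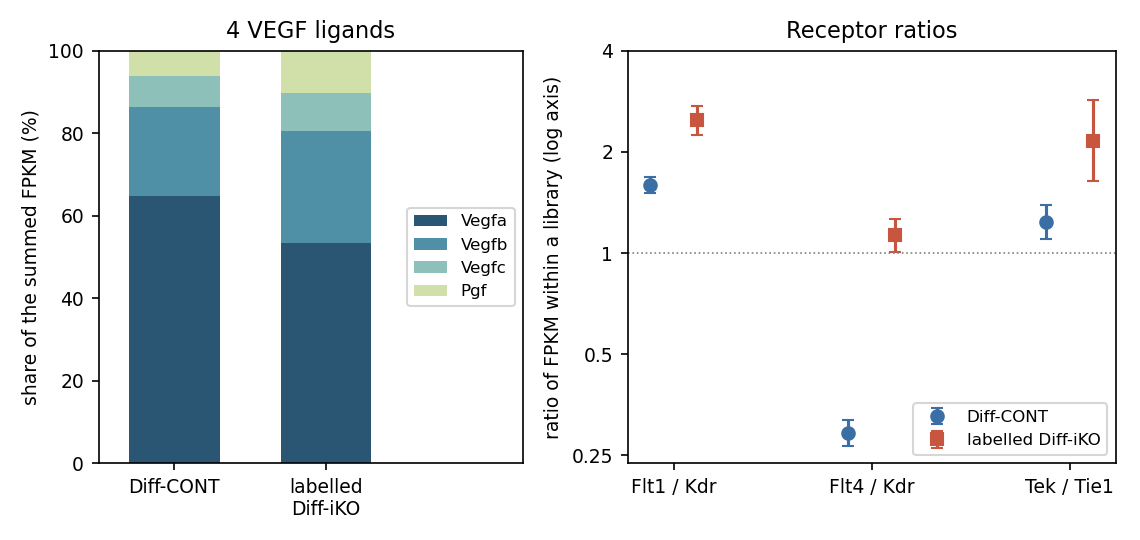
Left, share in percent of Vegfa, Vegfb, Vegfc and Pgf in their summed FPKM, without Vegfd, per library. Right, ratio of FPKM between receptor genes within each library on a log axis, with exact 95% counting intervals, where all 3 ratios are higher in the library labelled Diff–iKO and Flt4 to Kdr goes from 0.292 to 1.13.

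The sequences just before the start sites are shown because Vegfa and Vegfb, the most abundant ligand genes, both had lower values, and because Kdr, Tek and Tie1 were past the cut-off while Flt1 and Flt4 were not. They are from RefSeq (GRCm38.p6), are printed 5′ to 3′ on the strand of the gene, and cover the 250 bases before the first listed start site. Such a window was found for 9 of the 10 genes, and Angpt2 had none. The RefSeq start sites are not always those of GENCODE. By the GENCODE coordinates given above, the first windows of Flt4 and Pgf lie inside the gene, and most of that of Tie1 does. Capitals mark ACGTG or GCGTG on either strand, the core of the element bound by hypoxia-inducible factors, and Vegfa (chr17:46032378-46032627, minus strand) has none while Vegfb (chr19:6987652-6987901, minus strand) has 2 matches of GCGTG.
Vegfa: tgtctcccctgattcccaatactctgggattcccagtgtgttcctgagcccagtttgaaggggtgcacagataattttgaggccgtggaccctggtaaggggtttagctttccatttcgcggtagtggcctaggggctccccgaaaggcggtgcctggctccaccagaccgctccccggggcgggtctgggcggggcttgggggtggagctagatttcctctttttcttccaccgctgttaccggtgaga
Vegfb: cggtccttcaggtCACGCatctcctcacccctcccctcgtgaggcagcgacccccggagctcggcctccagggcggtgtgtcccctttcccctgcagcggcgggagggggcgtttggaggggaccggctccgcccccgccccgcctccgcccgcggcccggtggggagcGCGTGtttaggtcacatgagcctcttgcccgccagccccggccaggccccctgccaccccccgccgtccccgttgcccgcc

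The 9 genes have 11 windows, since Vegfa and Pgf have a second start site, and 5 of the 11 windows held GCGTG and 1 held ACGTG, that of the second start site of Vegfa. Among all 32851 windows of the table, 28.2% held GCGTG and 16.6% held ACGTG. For the receptors, 30 bases around the GGAA nearest the start site are shown, since GGAA is the core bound by ETS factors, which endothelial genes are known to use. Capitals mark GGAA or TATAAA on either strand, and overlapping matches were counted separately.
Kdr (chr5:75978557-75978586, minus strand): gcgtgGGAAaccgGGAAacccaaacctggt
Flt1 (chr5:147726034-147726063, minus strand): GGAAgtgggctggGGAAaggtTATAAAtcg
Flt4 (chr11:49609563-49609592, plus strand): cctggggcaagctGGAAgggacagagaggg
Tek (chr4:94739217-94739246, plus strand): gatacccctattgTTCCtgaaaatgctgac
Tie1 (chr4:118489850-118489879, minus strand): acaggcgacaactcTTCCcaccctctctcc

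GGAA occurred 7 times in the window of Tie1, 4 times in those of Kdr and Flt1, and 2 times in those of Tek and Flt4. By the GENCODE coordinates the window of Flt4 and most of that of Tie1 lie inside the gene. The counts of the receptors therefore do not cover like regions. It is common, with 93.4% of all windows holding at least 1 match and a median of 3. TATAAA was found in 1 of the 11 windows, that of Flt1, against 12.4% of all windows. The windows also differed in CpG content, from 2 CpG in Tek and 6 in Tie1 to 26 in Vegfb and 30 in Vegfc, where the median of all windows was 6. A match is a description of the letters and not of a bound site.

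The remaining genes of the ligand and receptor system were also read. Of 10 further genes, fixed as co-receptors, other ligands and processing factors, 7 reached the FPKM minimum, 4 were past the cut-off and lower, and 0 were higher, beside 8.39% and 6.73% of all genes. Vegfd, Adamts3 and Svep1 reached the minimum only through the Diff–CONT library, and with the minimum in both libraries 1 gene, Nrp2, was lower. Vegfd, listed under its older symbol Figf, encodes the second FLT4 ligand and was 4.90 and 1.65 (log2 ratio -1.57, interval -1.97 to -1.18). Adamts3, the protease that helps to activate VEGF-C, was 3.10 and 0.906 (-1.78, interval -2.16 to -1.42). Svep1, a large matrix protein with a role in lymphatic vessels, was 4.96 and 1.96 (-1.34). The neuropilin co-receptors Nrp1 and Nrp2 were the most abundant of these genes. Nrp1 was 49.2 and 26.1 (-0.91), under the cut-off, and Nrp2 was 28.3 and 14.0 (-1.01), just past it, with an interval of -1.11 to -0.92 that includes -1. Angpt1, the agonist of TEK, was 3.91 and 2.01 (-0.96), whereas Angpt4 was 1.91 and 2.52 (0.40, interval 0.02 to 0.77). Ccbe1 (1.49 and 0.386), Ptprb (1.03 and 0.461) and Lyve1 (0.110 and 0.0184) lay below the FPKM minimum.

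Related growth factor families were read as well, where all genes gave 8.39% lower and 6.73% higher. Of 7 angiopoietin-like genes, 2 reached the FPKM minimum, and Angptl4, an inhibitor of lipoprotein lipase, rose from 1.77 to 10.7 (log2 ratio 2.60, interval 2.36 to 2.85). It reached the minimum only through the Diff–iKO-labelled library, so 0 were higher with the minimum in both. The PDGF ligands are related to the VEGF ligands, and the PDGF, Kit, Flt3 and Csf1 receptors to the VEGF receptors. Of 12 genes of these receptors and their ligands, 2 were past the cut-off and lower and 1 was higher, of 10 at the FPKM minimum. Pdgfra, which shares a cluster on chromosome 5 with Kit and Kdr and starts 826 kb from Kdr, fell from 19.1 to 4.65 (-2.04). Kit lies between them at 404 kb from Kdr and was named after its value was seen. It was 20.6 and 26.1 (0.35, interval 0.27 to 0.42), not past the cut-off. The sign of its ratio thus differed from those of Kdr and Pdgfra. Kitl, the Kit ligand, fell from 13.3 to 6.01, and Csf1r, the receptor of macrophage colony-stimulating factor, rose from 2.91 to 12.8. Within 1 Mb of the 10 genes, 12 of 194 other genes at the FPKM minimum were lower (6.19%) and 6 were higher (3.09%), beside 8.39% and 6.73% of all genes.

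The genes that relay the signal inside the cell were read from lists of known components. Of 35 genes of the VEGF relay, 32 reached the FPKM minimum, 2 were lower (6.25%) and 1 was higher (3.1%), beside 8.39% and 6.73% of all genes, and the list median (log2, FPKM + 0.1) was -0.08 over 34 genes. Over all 13145 genes whose mean FPKM reaches 1 this median was -0.00767. Mapk3, which encodes the kinase ERK1, fell from 82.7 to 39.1 and Prkcb, a protein kinase C gene, from 2.36 to 0.790, while Hspb1, a small heat shock protein phosphorylated downstream of p38, rose from 87.3 to 348. Prkcb reached the FPKM minimum only through the Diff–CONT library, and 1 gene of the relay was lower with the minimum in both libraries, with a minimum of 5 or with 1 added to each FPKM. Of 12 genes of the angiopoietin relay and its integrin partners, 2 were past the cut-off, and both were higher, beside 6.73% of all genes. This call rested on the scaling, since with the libraries set to the same FPKM sum 0 were higher and 1 was lower, and with 1 added to each FPKM 1 was higher. The higher genes were the integrin subunit genes Itgb1 (345 and 717) and Itgb3 (7.90 and 16.4). The median of that list was 0.16.

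Of 18 genes known to respond to VEGF in endothelial cells, 12 reached the minimum, 5 were lower and 2 were higher, with a median of -0.50, where all genes gave 8.39% and 6.73%. Dll4, Hlx and Mef2c reached the minimum only through the Diff–CONT library. With the minimum in both libraries 2 were lower, with a minimum of 5 there was 1, and with 1 added to each FPKM there were 3 and the median was -0.30. The transcription factor genes Egr1 (32.3 and 15.2), Hhex (4.62 and 2.19) and Hlx (2.53 and 0.818) were lower. Named after their values were seen, the last of the 5 lower genes were Mef2c (2.47 and 0.605) and Dll4 (2.11 and 0.396), which encodes the Notch ligand of endothelial tip cells. The higher genes were F3, the tissue factor gene (32.4 and 119), and Plaur, the urokinase receptor gene (23.5 and 105). Many of these genes also respond to other signals.

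Vegfa is a classical target of hypoxia-inducible factors, and the genes of that pathway were described beside it. Of 20 hypoxia targets, 4 were lower and 0 were higher, of 19 that reached the FPKM minimum, and the median log2 ratio was -0.64. Of all genes, 8.39% were lower and 6.73% were higher. Ldha, the lactate dehydrogenase gene, fell from 910 to 350 (-1.38, interval -1.41 to -1.34), Bnip3 from 81.8 to 29.2 (-1.48) and Ddit4 from 83.1 to 36.4 (-1.19). Among 10 genes of the factors and their regulators 4 were lower, namely Hif3a (8.27 and 1.56) and, at higher levels, Egln1 (34.2 and 15.0) and Egln3 (28.7 and 12.1), which encode oxygen-sensing hydroxylases, and Arnt2, named after its value was seen (6.47 and 2.12). Hif1a was 38.5 and 31.5 and Epas1 was 11.7 and 12.4, neither past the cut-off, and both were also named after their values were seen. Egln3 is in both lists. Hif3a reached the FPKM minimum only through the Diff–CONT library, and 3 of the 10 genes of the factors and regulators were lower with the minimum in both.

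Kdr, Tek and Tie1 are known mainly from endothelial cells, so the markers of these cells were set beside them. The 16 endothelial markers, which do not include the 10 genes, summed to an FPKM of 120 in Diff–CONT and 146 in the Diff–iKO-labelled library, and none was at 0. Of the 14 at the FPKM minimum, 7 were past the cut-off and lower and 3 were higher, beside 8.39% and 6.73% of all genes. The median was -0.88 over 15 genes. Ramp2 (16.7 and 5.05), the junction gene Cdh5 (10.3 and 4.34) and Ecscr (10.3 and 3.17) were lower, whereas the adhesion gene Pecam1 (16.2 and 53.9), Eng, a TGF-beta co-receptor gene (7.31 and 28.9), and Robo4 (1.05 and 2.36) were higher. The higher sum of the list rested on Pecam1 and Eng. Over all 16 markers the log2 ratios ran from -3.43 for Icam2, named after its value was seen, to 1.98 for Eng. With the FPKM minimum in both libraries 3 markers were lower and 2 were higher, and with 1 added to each FPKM the median was -0.58. The 20 endothelial transcription factor genes had a median of -1.31, with 7 lower and 1 higher of 13 at the minimum, beside 8.39% and 6.73% of all genes. Of the 7, 6 reached the minimum only through the Diff–CONT library, so 1 was lower with the minimum in both, and the median was -0.87 with 1 added to each FPKM. Sox17 fell from 5.36 to 0.317, Nr2f2, a venous factor gene, from 8.86 to 3.20 and Foxc1 from 3.92 to 1.68, while Klf2, which responds to blood flow, rose from 6.15 to 33.7. The part of the number of endothelial cells in the receptor values was not tested.

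Markers of other cells moved with the libraries as well. Of 12 markers of mural cells, which surround vessels, 3 were lower and 3 were higher, against 8.39% and 6.73% of all genes. The 3 lower genes reached the FPKM minimum only through the Diff–CONT library, so 0 were lower with the minimum in both libraries, and 1 was lower with 1 added to each FPKM. Rgs5 fell from 13.8 to 1.35, together with Abcc9 (2.79 and 0.952) and Kcnj8 (2.80 and 1.05). Mcam (80.8 and 190), Cnn1 (8.71 and 19.0) and Cspg4 (3.66 and 7.46) were higher. All 12 mural markers together summed to an FPKM of 724 and 1091. Of 15 trophoblast markers, 8 were higher and 2 were lower, and the list summed to 547 and 788. With the FPKM minimum in both libraries 3 were higher and 1 was lower, and among all genes 6.73% were higher and 8.39% lower. Trophoblast cells are a known source of Flt1 and Pgf. Krt7 (39.2 and 86.4), Tfap2c (6.68 and 24.1) and Plac1 (11.6 and 26.5) were higher, and Hand1 (70.8 and 31.3) and Cdx2 (4.00 and 0.705) were lower. Flt1 (19.4 and 10.9) and Pgf (10.1 and 8.04) were both lower.

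Blood and visceral endoderm are neighbours of the first vessels in the yolk sac, and their markers had lower summed levels. The 12 blood markers summed to 196 in Diff–CONT and 8.31 in the Diff–iKO-labelled library, where the embryonic globin genes Hbb-bh1 (88.2) and Hba-x (54.9) were listed at 0 and Hbb-y went from 35.0 to 0.102. Of 7 blood markers at the minimum 5 were lower and 0 were higher, beside 8.39% and 6.73% of all genes, and none of the 5 reached the minimum in both libraries. The 10 markers of visceral endoderm summed to 339 and 25.7, with 9 lower and 1 higher against the same shares of all genes, of which 4 lower genes reached the FPKM minimum in both libraries. Rbp4 went from 111 to 3.05, Ttr from 66.7 to 2.28 and Apob from 47.0 to 0.290, while Trf was higher (4.18 and 11.2). The part of these other cell types in the VEGF and angiopoietin values was not tested.

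**Figure D4:**
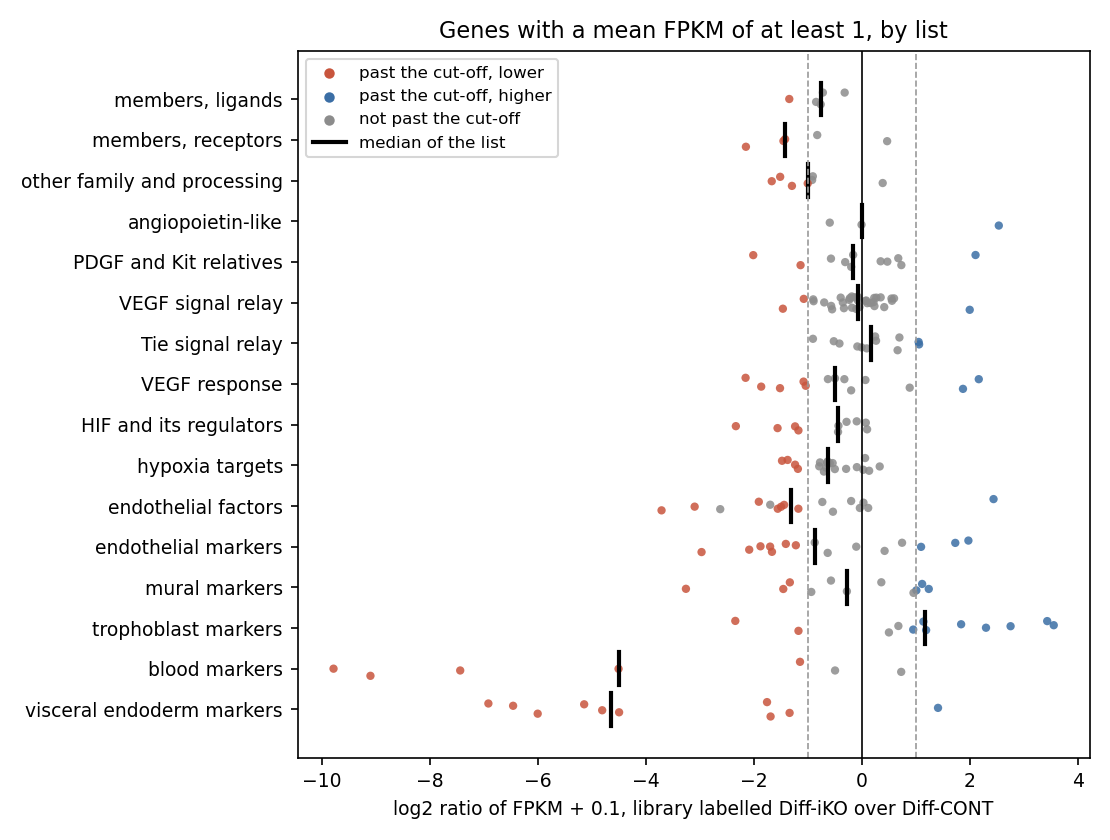
Log2 ratio of FPKM + 0.1, library labelled Diff–iKO over Diff–CONT, for each gene whose mean FPKM reaches 1, by list, in red or blue where past the cut-off and lower or higher and in grey otherwise, with black bars for the list medians and dashed lines at a fold change of 2. The median is -1.42 for the 5 receptors, -0.76 for the 5 ligands, -0.08 for the VEGF signal relay and 1.16 for the trophoblast markers.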

How the data were processed

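Poly(A) RNA from differentiating ESCs was prepared with a stranded mRNA kit from 1 µg of total RNA and sequenced as paired-end reads, with 1 library for Diff–CONT and 1 for Diff–iKO. The authors deposited FPKM values. The submitters' processing notes name STAR 2.7.9a, mm10, and Cuffnorm of Cufflinks 2.2.1, and the methods add Cuffquant. The gene annotation, the strand setting and read counts are not given in the sources used here. The 2 columns were matched to the libraries by name, and 0 other columns of values were present.

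The 10 genes and the lists were chosen with earlier results of these data known. From the FPKM values, log2 ratios were taken without a pseudocount. The cut-off was a fold change of at least 2 with FPKM of at least 2 in at least 1 library. List medians used FPKM + 0.1 over genes whose mean FPKM reached 1. Low FPKM values of 10487 genes that have 1 RefSeq transcript, 1000 nucleotides or longer, were fitted to whole fragments, with a mean fragment length of 190 nucleotides. Of values between 0.5 and 6 fragments, 88.1% and 88.3% lay within 0.2 of a whole number, against 40% by chance. The fragments of each gene use its shortest RefSeq transcript, and they gave exact (Clopper-Pearson) 95% intervals. The cut-off, the fit and the intervals were tested on simulated counts with 1 transcript length per gene. The simulation had no variation between cultures and does not cover the choice between transcripts of a gene.

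Coordinates are from GENCODE vM21 (GRCm38). Named genes were the 10 genes, the further ligands, co-receptors and processing factors, and up to 3 genes per list and direction past the cut-off with the highest mean FPKM. Other names are marked in the text. Genes of near-identical families, such as prolactins and globins, are uncertain in FPKM. Neighbouring genes within 1 Mb were added after the data were seen. The computations ran in Python 3.11.15 with scipy 1.17.1, numpy 2.4.6 and pandas 2.3.3, and the plots were drawn with matplotlib 3.10.9.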

Additional observations from a re-analysis of the deposited data

How the results depend on the processing

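No paired analysis was possible because each group has 1 library, and for the same reason no replicate could be left out. No symbol had more than 1 row, so summing rows gave no other value. All 10 genes kept the sign of their log2 ratio under both pseudocounts and all 3 other scalings. The 4 lower genes stayed past the cut-off under these settings, and 0 were higher under every setting tried. With an FPKM minimum of 2 in both libraries 2 of the 10 genes were lower, with a fold change of at least 1.5 there were 8, and with at least 4 there was 1. For all genes, no FPKM minimum gave 2761 lower and 2794 higher, a minimum of 2 in both libraries 569 and 488, a fold change of at least 1.5 2177 and 1846, and at least 4 237 and 278. A minimum of 5 gave 671 lower. With a pseudocount of 1 the log2 ratio of Kdr was -1.29, that of Tek -1.12 and that of Tie1 -1.49, the ratio of Flt4 to Kdr was 0.346 in Diff–CONT, and in Diff–iKO the ratio of Flt1 to Kdr was 2.21 and that of Tek to Tie1 was 1.55. The share of Vegfc was then 7.95% and 9.99% and that of Pgf 6.56% and 10.9%. Low FPKM values of short transcripts are the least precise, and the variation between cultures is unknown.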
